A study of Mus musculus with 6 samples.

Results

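The Runx transcription factors and their partner Cbfb were followed in cultured Pax5-deficient mouse pro-B cells, with and without a retrovirus that carries EBF, a transcription factor of early B cell development. Members were all probe sets whose platform gene symbol is Runx1, Runx2, Runx3 or Cbfb, each kept separate. This gave 9 of 45037 tested probe sets: 6 for Runx1, 2 for Runx3 and 1 for Cbfb. No probe set carried the symbol Runx2 in the platform table, so 3 of the 4 genes were measured and Runx2 was not analysed here. Both groups were Pax5-/- pro-B cells, so no comparison with Pax5-sufficient cells is part of the design. The cells grew on the stromal line ST2 with 5 ng/ml IL-7. One group received the EBF virus (Mig-EBF) and the other the control virus (MigR1). GFP-positive cells were sorted 2 days after infection, and each group was measured on 3 arrays, called EBF 1 to 3 and control 1 to 3. Whether the numbered replicates came from separate animals or cultures is not stated in the labels. The p-values therefore reflect only how far these arrays scatter, which may be technical.

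Runx1, Runx2 and Runx3 encode transcription factors that share the Runt domain, which binds the DNA core ACCACA, read TGTGGT on the opposite strand. Cbfb encodes core binding factor beta, a subunit that does not itself contact DNA but binds the Runt domain and strengthens its hold on DNA. Runx1 is needed for definitive blood stem cells and acts with EBF and Ets1 at early B lineage promoters, Runx2 is best known from bone, and Runx3 from T cells and natural killer (NK) cells. Each Runx gene can be transcribed from a distal and a proximal promoter, which give proteins that differ at the N terminus.

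The distal starts of the Runx genes are shown because the 3 genes share a pair of RUNX cores there. The sequences are from the RefSeq table of build GRCm38.p6, which holds 250 bases before to 50 after each start and has a window for all 4 members (2 each for Runx1 and Runx3, 1 each for Runx2 and Cbfb). For Runx1 and Runx3 the more upstream window is taken. The longest stretch common to the 3 windows, found after the sequences had been seen, is 18 bases long and is given in capitals, with flanks, 5′ to 3′ on the gene's strand. With its flanks, the printed Runx1 sequence lies at chr16:92826025-92826054 (minus strand). That of Runx2 lies at chr17:44814583-44814612 (minus strand) and that of Runx3 at chr4:135120503-135120532 (plus strand).
Runx1: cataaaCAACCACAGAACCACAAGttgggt
Runx2: cacaaaCAACCACAGAACCACAAGtgcggt
Runx3: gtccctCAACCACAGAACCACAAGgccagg

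The stretch holds 2 copies of ACCACA with 2 bases between them. It begins at position 27 of the transcribed sequence in Runx1 and at position 22 in Runx2, counting the annotated start as 1, and at position -136, upstream of the start, in Runx3. On either strand it occurs in 4 of 32851 promoter windows of this length (0.0122%). The fourth window belongs to Gm16225, a gene annotated as a long non-coding RNA on the opposite strand, whose window overlaps that of Runx3, so that the 4 windows are 3 places in the genome. The tandem core ACCACANNACCACA alone, in either direction, occurs in 7 windows (0.0213%), which include these 4, and the single core ACCACA in 16.8% of windows. Other forms of the RUNX core were not searched for. The core of the EBF motif, CCCNNGGG, which reads the same on both strands, was not found in any of the 6 windows of the members and is in 13.7% of all windows. This says only that these letters are not in the windows searched.

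The 250 bases upstream of the distal start are given for Runx1 and Runx3, the genes with a probe set that fell when same-numbered arrays were compared as blocks. Runx1 (chr16:92826075-92826324, minus strand) holds 1 copy of CACGTG, a form of the E-box, in capitals. That motif is in 7.15% of all windows and reads the same on both strands. Other forms of the E-box were not searched for in either gene. Runx3 (chr4:135120395-135120644, plus strand) holds the pair of RUNX cores, in capitals.
Runx1: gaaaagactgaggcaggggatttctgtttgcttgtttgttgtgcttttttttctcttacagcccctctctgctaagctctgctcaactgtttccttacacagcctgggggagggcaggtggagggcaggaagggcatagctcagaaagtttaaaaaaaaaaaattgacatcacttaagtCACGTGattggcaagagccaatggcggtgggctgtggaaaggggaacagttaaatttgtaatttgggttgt
Runx3: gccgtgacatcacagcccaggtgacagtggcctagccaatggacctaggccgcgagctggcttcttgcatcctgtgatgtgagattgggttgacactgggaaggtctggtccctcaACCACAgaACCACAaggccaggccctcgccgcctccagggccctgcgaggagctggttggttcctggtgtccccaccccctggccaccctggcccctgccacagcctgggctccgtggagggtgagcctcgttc

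Array medians lay between 424 and 451 on the linear intensity scale, and the 27 control probe sets for Bacillus transcripts reached 410 at most, a level used here as a guide to what is dim. The pro-B markers were present: 11 of the 12 measured of 14 listed were above that level on every array. In limma 1 of them rose (Vpreb3, log2 0.67) and 1 fell (Dntt, log2 -0.70), where 1.09% of all genes passed. The summed intensity of the markers was 71531 to 72996 in the EBF arrays and 61988 to 63919 in the controls. Differences are given as log2(intensity + 32), EBF minus control, from limma (two-sided), with its standard error (SE) and the p adjusted by Benjamini-Hochberg over all tested probe sets. A fold change on that scale understates the change of dim probe sets. Same-numbered arrays of the 2 groups deviated together, so a second fit with the replicate number as a block is given where it changes a call. With that block 4 of the 12 measured pro-B markers rose (Vpreb3, Cd79b, Igll1 and Il7r) and 1 fell (Dntt). Of all genes 7.34% passed there. The levels of different probe sets are not compared with each other, since probes differ in how brightly they hybridise.

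Of the 9 probe sets 0 passed an adjusted p of 0.05 in limma, where 0.875% of all tested probe sets did. At an unadjusted p below 0.05, 3 of them, 2 of Runx1 and 1 of Runx3, were lower in the EBF arrays and 0 were higher. The share of all probe sets lower at that p was 6.19%. With the replicate block, 2 of the 9 fell, 1 each of Runx1 and Runx3, and 0 rose, against 2.4% of all probe sets that fell. In 5 of the 9, 4 of them Runx1, the EBF array was below the control array of its number in 3 of 3 pairs, as were 17.3% of all probe sets. Every EBF array was below every control array in 2 of the 9, against 7.67% of all. Probe sets of 1 gene share their transcripts, so these 9 are not 9 independent cases.

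**Figure D1:**
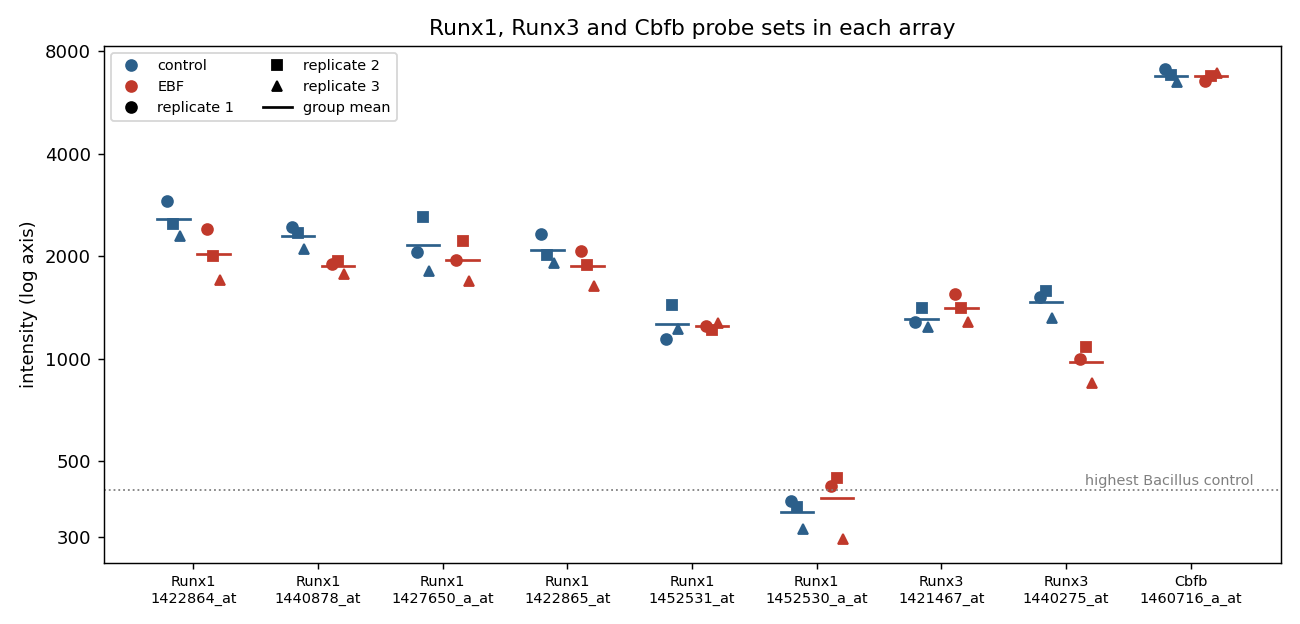
Intensity of each Runx1, Runx3 and Cbfb probe set on a log axis, with control arrays in blue and EBF arrays in red, marker shape giving the replicate number and short lines the group means (n = 3). The groups are separate for Runx3 1440275_at (848 to 1082 against 1317 to 1577) and Runx1 1440878_at, and Cbfb stays between 6489 and 7071 in all 6 arrays.

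The largest difference among the 9 was that of the Runx3 probe set 1440275_at. Runx3, a regulator of cytotoxic T cell and NK cell genes, read 997, 1082 and 848 in EBF 1 to 3 and 1521, 1577 and 1317 in control 1 to 3 at this probe set. The groups did not overlap, and in both of them replicate 3 was the lowest. The group means were 976 ± 118 with EBF and 1472 ± 137 without (SD, n = 3 each), 1.49-fold lower with EBF (log2 -0.58 ± 0.11 SE). The limma adjusted p was 0.0555, just above the threshold of 0.05, and 0.00333 with the replicate block, where the probe set fell. The differences of the same-numbered pairs were -0.59, -0.53 and -0.62, so that the pairs lay closer together than the arrays within a group. In RNA from a population of cells, fewer cells with the transcript and less of it per cell cannot be told apart.

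The other Runx3 probe set, 1421467_at, did not move with it. It read 1553, 1408 and 1278 in EBF 1 to 3 and 1280, 1407 and 1242 in control 1 to 3, and the groups overlapped. EBF minus control was 0.10 ± 0.09 on the log2 scale (SE; adjusted p by limma = 0.561, blocked 0.473), with a 95% interval from -0.11 to 0.31. It was 0.035 without EBF 1 and 0.17 without EBF 3, the lowest and highest values with 1 array left out. The platform table lists a RefSeq mRNA as the source of this probe set and another kind of sequence record for 1440275_at. The position and strand of either within the gene were not used here.

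The unequal change of the 2 Runx3 probe sets was measured within each array. The log2 value of 1421467_at minus that of 1440275_at was 0.52 ± 0.13 with EBF and -0.16 ± 0.08 without (SD, n = 3 each), a shift of 0.68. The groups did not overlap, and the exact permutation test (two-sided) gave p = 0.1, the smallest that 3 against 3 arrays allow, and 0.2 after Benjamini-Hochberg adjustment over the 6 pairs of probe sets compared. Apart from the pseudocount, a ratio within an array does not depend on a scaling factor of that array. It shows unequal change of the 2 signals and not which of them follows the Runx3 mRNA.

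NK markers went both ways between the groups. Of the 11 listed NK markers 10 were measured. In limma 1 of them rose and 2 fell, where 1.09% of all genes passed. The median log2 difference of the markers was 0.02. Their summed intensity was 3699 to 4815 in the EBF arrays and 5407 to 7068 in the controls. Only Klrd1 and Nkg7, an NK receptor chain and a cytotoxic granule protein, were above the highest Bacillus control on every array, and both fell (log2 -2.06 and -1.70). Gzma, the granule protease granzyme A, rose from 193, 169 and 150 in control 1 to 3 to 1807, 1477 and 921 in EBF 1 to 3 (log2 2.78 ± 0.21 SE; limma adjusted p = 0.00164). The NK receptor gene Ncr1, the NK regulator gene Tbx21, Klrk1, Klre1, Prf1 and Gzmb were below it on every array. The part of these markers in the Runx3 result was not tested.

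Runx1, the family member needed for blood stem cells and for B cell development, was read by 6 probe sets. The brightest, 1422864_at, read 2406, 1996 and 1707 in EBF 1 to 3 and 2907, 2489 and 2298 in control 1 to 3. The groups overlapped, because EBF 1 was above control 3, but each EBF array was below the control array of its number. The means were 2036 ± 352 and 2565 ± 311 (SD, n = 3 each), 1.26-fold lower with EBF (log2 -0.34 ± 0.13 SE; limma adjusted p = 0.234). With the replicate block the SE was 0.08 and the probe set fell (adjusted p = 0.0323).

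A separate Runx1 probe set, 1440878_at, had groups that did not overlap. It read 1900, 1936 and 1774 in EBF 1 to 3 and 2439, 2341 and 2094 in control 1 to 3. The log2 difference was -0.29 ± 0.08 (SE; limma adjusted p = 0.148, blocked 0.0508), so it missed the threshold in both fits. Across the 6 arrays its log2 values followed those of Runx3 1440275_at with a Pearson r of 0.97, and those of Runx1 1422864_at with r = 0.86. These are descriptions over 6 arrays that share the group difference.

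The Runx1 probe sets 1422865_at and 1427650_a_at were lower in 3 of 3 pairs by smaller amounts. The first read 2078, 1883 and 1637 in EBF 1 to 3 and 2323, 2015 and 1905 in control 1 to 3 (log2 -0.16 ± 0.11 SE). The second read 1945, 2220 and 1687 in EBF 1 to 3 and 2062, 2600 and 1814 in control 1 to 3 (log2 -0.14 ± 0.14 SE). Their groups overlapped, and neither passed in either fit (limma adjusted p = 0.463 and 0.633, blocked 0.227 and 0.296). With 1 array left out the first ranged from -0.24 (without EBF 1) to -0.067 (without EBF 3), and the second from -0.25 (without control 3) to 0.0034 (without control 2).

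The last pair of Runx1 probe sets showed no common direction across pairs. At 1452531_at, EBF arrays read 1251, 1215 and 1271 and control arrays 1144, 1435 and 1220 (log2 -0.02 ± 0.09 SE, 95% interval -0.23 to 0.19; limma adjusted p = 0.935). At 1452530_a_at, EBF arrays read 424, 447 and 295 and control arrays 382, 368 and 316 (log2 0.10 ± 0.14 SE; limma adjusted p = 0.732). Only 2 of the 6 arrays were above the highest Bacillus control at this last probe set, so it is dim and bears little on Runx1. Over the 6 Runx1 probe sets 5 had a difference below 0, and the median was -0.15.

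The Runx1 probe sets were set against the brightest one within each array. The shift of 1422864_at relative to another was -0.05 for 1440878_at, -0.20 for 1427650_a_at, -0.18 for 1422865_at, -0.32 for 1452531_at and -0.44 for 1452530_a_at. With 1 array left out the first ranged from -0.16 (without EBF 1) to 0.033 (without EBF 3), the second from -0.36 (without control 2) to -0.081 (without control 1) and the fourth from -0.44 (without EBF 1) to -0.16 (without control 1). Groups did not overlap for 1422865_at and for the dim 1452530_a_at (exact permutation p = 0.1 and adjusted p = 0.2 for both), and overlapped for the other 3 (exact permutation p between 0.3 and 0.7). The probe sets 1422864_at and 1422865_at are both listed with a RefSeq mRNA and followed each other with r = 0.97 over the 6 arrays.

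**Figure D2:**
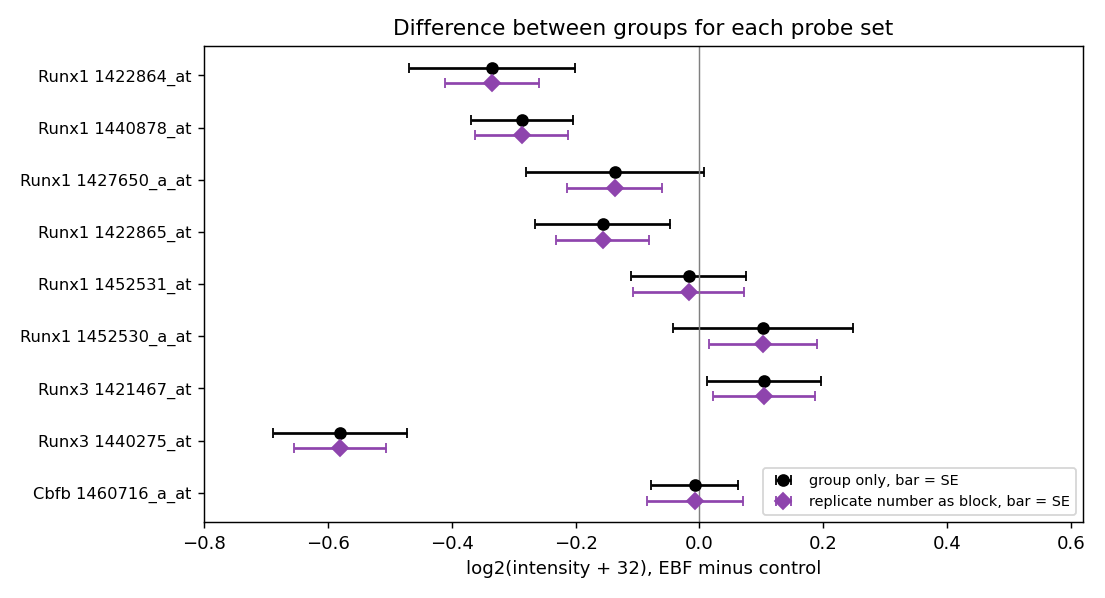
Log2 difference, EBF minus control, for each probe set, with bars of 1 standard error from limma without (black circles) and with (purple diamonds) the replicate number as a block. Runx3 1440275_at lies furthest from 0 at -0.58, the other Runx3 probe set at 0.10 and Cbfb at -0.01.

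Cbfb, the shared partner of the Runx proteins, was level between the groups at its 1 probe set, 1460716_a_at. It read 6560, 6770 and 6918 in EBF 1 to 3 and 7071, 6796 and 6489 in control 1 to 3, and the groups overlapped. The means were 6749 ± 180 and 6785 ± 291 (SD, n = 3 each), a difference of -0.01 ± 0.07 on the log2 scale (SE; adjusted p by limma = 0.966, blocked 0.966). The 95% interval ran from -0.17 to 0.15, so larger differences in either direction lie outside it.

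**Figure D3:**
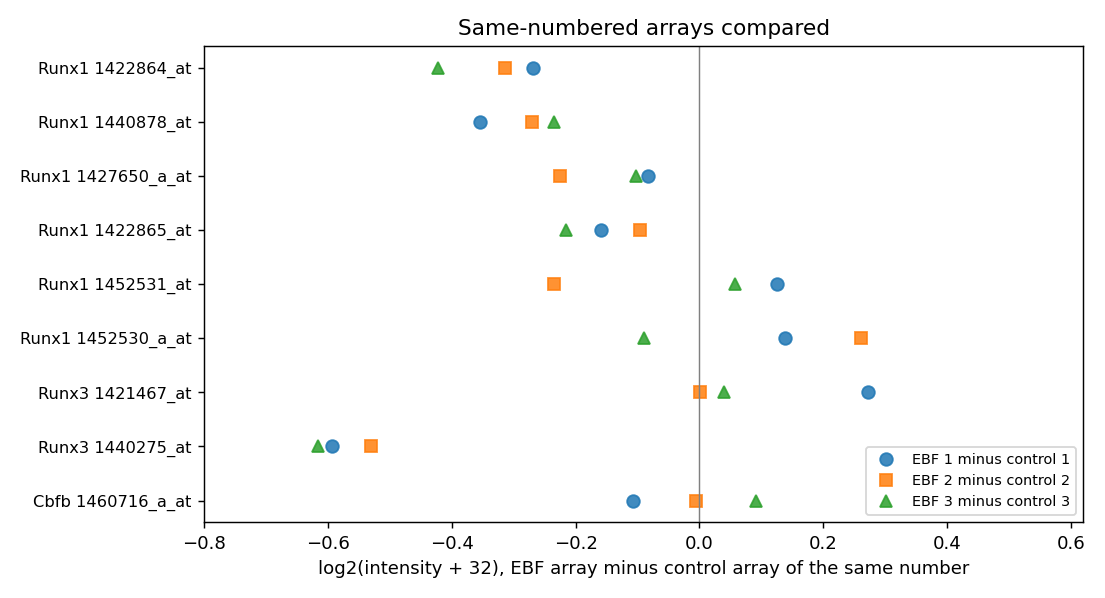
Log2 difference between the EBF and the control array of the same number, for each probe set, with 1 marker per pair. All 3 pairs are below 0 for 4 Runx1 probe sets and Runx3 1440275_at, and all 3 are above 0, although 1 is near 0, for Runx3 1421467_at.

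By a rule on likeness, the 3 eligible genes whose brightest probe set followed that of each member most closely over the 6 arrays were named. For Runx1 they were Arhgap9 (r = 0.99), the annexin gene Anxa6 (0.98) and the zinc finger gene Zfp760 (0.98), out of 3855 genes eligible. All 3 had lower means in the EBF arrays and did not pass (log2 -0.30, -0.30 and -0.48). For Runx3, read at 1421467_at, they were the RNA helicase gene Ddx51, Vps13d and the bicarbonate transporter gene Slc4a4 (r of 0.99 each, of 10018 eligible). For Cbfb they were Msra, a methionine sulfoxide reductase gene, Slc22a26 and Fchsd1 (r of 0.98, 0.98 and 0.97, of 11234). With 6 arrays and so many candidates high values arise readily, and for Cbfb the pattern followed is a small spread around a constant level.

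Runx cofactors went in both directions, with counts near the share of all genes. Of 23 measured genes of 26 listed, 0 passed in limma, against 1.09% of all genes. An unadjusted p below 0.05 was reached by 2 cofactors that were higher and 1 that was lower. Of all 18193 genes 2452 were higher and 1134 lower at that p. With the replicate block 1 cofactor rose and 1 fell, against 7.34% of all genes that passed there. The list's median log2 difference was 0.02, and that of all genes 0.03.

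The cofactor that rose in the blocked fit was Ets1, which encodes a factor that binds DNA together with Runx1. It read 4654, 4512 and 4865 in EBF 1 to 3 and 3644, 2798 and 3484 in control 1 to 3 (log2 0.50 ± 0.10 SE; limma adjusted p = 0.0788, blocked 0.0115). All EBF arrays were above all control arrays, and its other 3 probe sets had differences of 0.29, 0.17 and 0.10 that passed in neither fit. The one that fell was Cbfa2t3, which encodes a corepressor of the ETO family. It read 1974, 1956 and 1809 in EBF 1 to 3 and 2601, 2532 and 2305 in control 1 to 3 (log2 -0.37 ± 0.08 SE; limma adjusted p = 0.0837, blocked 0.0207). A second Cbfa2t3 probe set also fell in the blocked fit (log2 -0.38, blocked adjusted p = 0.0227), and the remaining 2 had 0.12 and -0.16.

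Genes described as Runx targets in blood cells went in both directions. Of 34 measured of 38 listed, 1 fell and 0 rose in limma, where 1.09% of all genes passed, and 3 rose and 3 fell with the block, where 7.34% did. An unadjusted limma p below 0.05 was reached by 7 targets that were higher and 5 that were lower. Of all 18193 genes 2452 were higher and 1134 lower at that p. Their median was 0.02. Igll1, Vpreb1, Cd79a, Rag1, Rag2 and Ebf1 of this list are also among the pro-B markers. Whether any change in the list went through a Runx factor was not tested. Itgal, the integrin chain CD11a, passed in both fits. It read 2642, 3027 and 2946 in EBF 1 to 3 and 4096, 3960 and 4016 in control 1 to 3 (log2 -0.48 ± 0.08 SE; limma adjusted p = 0.0322, blocked 0.0107). Its groups were far apart, and its other probe set had -0.39 (limma adjusted p = 0.0525, blocked 0.0168). Itgal lost the call without EBF 1, EBF 2, control 1, control 2 or control 3 (limma adjusted p = 0.109, 0.103, 0.128, 0.134 and 0.118) and kept it without EBF 3 (0.0157).

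With the block Bcl2, a survival gene, fell (log2 -0.40, limma adjusted p = 0.0964, blocked 0.0230). Gfi1b, a transcriptional repressor that acts in erythroid and megakaryocyte cells, fell there too (log2 -0.49, limma adjusted p = 0.228, blocked 0.00699). Igll1, the lambda5 surrogate light chain, rose there (0.57; 0.0788, blocked 0.00409), together with Cd74, the MHC class II invariant chain (0.48; 0.149, blocked 0.0109), and Itgae, the integrin chain CD103 (0.42; 0.105, blocked 0.0343). The next brightest Bcl2 probe sets had -0.35 and -0.38, of which the second also passed with the block, and the remaining 2 had 0.05 and -0.47 and did not pass. The dimmer Igll1 probe set had 0.02, and the dimmer Itgae probe set 0.28 (limma adjusted p = 0.144, blocked 0.0632). At the brighter Itgae probe set only the 3 EBF arrays were above the highest Bacillus control. Among the genes of this list that passed in either fit, Itgal included, Gfi1b was the one whose groups overlapped. Its EBF 3 array read 1008, above control 1 and control 2 at 937 and 965.

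Genes described as Runx2 targets in bone and cartilage included 1 large increase. Of 16 measured of 20 listed, 1 rose and 0 fell in limma, and 1 rose and 1 fell with the block, against the same 1.09% and 7.34% of all genes. At an unadjusted limma p below 0.05, 2 were higher and 1 lower, beside 2452 higher and 1134 lower of all 18193 genes. Mmp13, a collagenase, read 1896, 2098 and 1992 in EBF 1 to 3 and 698, 553 and 858 in control 1 to 3. It rose 2.80-fold (log2 1.48 ± 0.14 SE; limma adjusted p = 0.00352) and kept the call without any 1 array. Tnfsf11, the RANK ligand gene, read 1200, 1608 and 1030 in EBF 1 to 3 and 2343, 2815 and 1635 in control 1 to 3. It fell only in the blocked fit (log2 -0.80 ± 0.21 SE; limma adjusted p = 0.130, blocked 0.00115), and its other probe set had -0.81 (blocked adjusted p = 6.23e-04). The list's median was -0.10. It shares the collagen genes Col1a1 and Col1a2 with the ST2 stromal markers, of which 15 of 16 were measured and 10 were above the highest Bacillus control on every array. Their summed intensity was 18114 to 26771 in the EBF arrays and 20806 to 35666 in the controls, and the part of stromal RNA in this list was not tested.

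**Figure D4:**
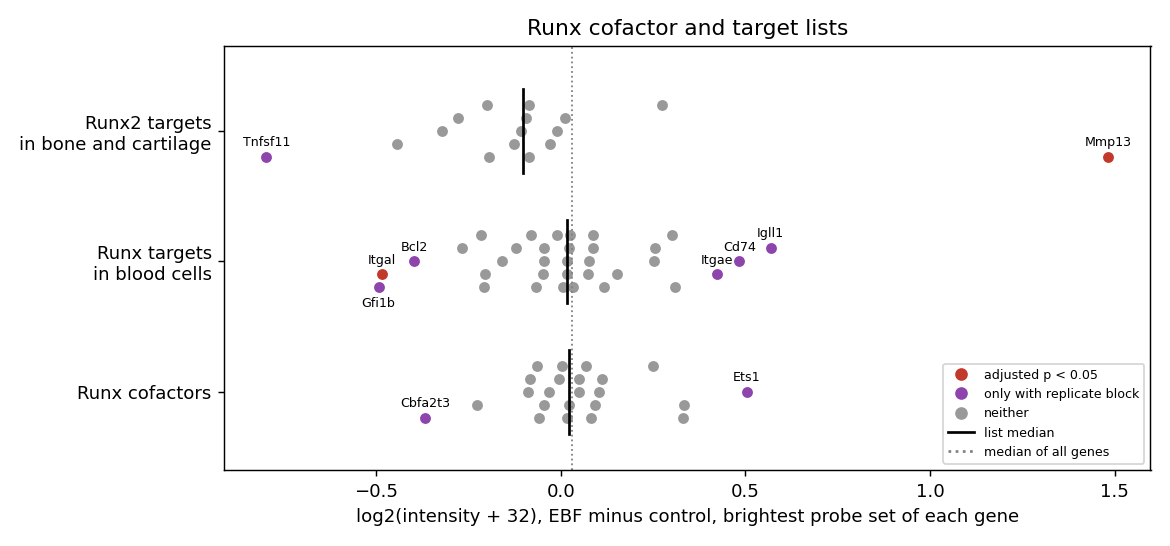
Log2 difference, EBF minus control, of the brightest probe set of each gene in the cofactor list and the 2 target lists. Red points passed limma's adjusted p, purple points passed only with the replicate block, black bars are list medians and the dotted line is the median of all genes (0.03). Mmp13 stands apart at 1.48.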

How the data were processed

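Per the labels' protocols, 6 microg of total RNA was the input for biotinylated cRNA and an Affymetrix array. The deposited values are linear intensities, 1 per probe set and array; the sources used here do not name the software or normalization behind them. The design text names a rat array, but the platform table and the labels are those of mouse. The 64 Affymetrix controls among 45101 probe sets were not tested. The platform table gives 1 symbol to 34945 probe sets, several to 932 and none to 9160. A gene in a list was read at its brightest probe set over all 6 arrays (18193 genes).

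The values log2(intensity + 32) entered a linear model with group as the only term (limma 3.58.1, lmFit and eBayes, under R 4.3.3), which was tested on simulated data. The number of arrays limits the precision. Alternatives were the replicate block, a lower and a higher pseudocount, median scaling, quantile normalization, a filter on dim probe sets, an intensity trend, adjustment over genes, and leaving out arrays. Same-numbered arrays correlated in their deviations from the group means (r = 0.318 for number 1, 0.255 for number 2 and 0.504 for number 3, where more than 0.1 was asked). This pairing is read from the data; the labels give numbers alone.

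All probe sets of the members were named. From each cofactor or target list, every gene past the threshold in either fit was named. The likeness rule took 3 genes per member among genes brighter on average than the highest Bacillus control, with at least 50% of the member's range over the arrays. Genes with clone, predicted-gene or accession symbols, such as those ending in Rik or beginning with LOC, were not eligible. The members and lists were chosen with earlier results of these data known.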

Additional observations from a re-analysis of the deposited data

How the results depend on the processing

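The number of arrays limits all counts. The main fit called 394 probe sets, and 0 Runx or Cbfb probe sets, 0 cofactors, 1 blood target and 1 bone target. With the replicate block these counts were 3280, 2, 2, 6 and 2. Runx3 1440275_at was the 1 member probe set called, as lower, with the higher pseudocount, median scaling, quantile normalization, the filter on dim probe sets or the intensity trend (limma adjusted p between 0.0370 and 0.0463), but not with the lower one (0.0785). With the trend 1 cofactor and 3 blood targets were called. Adjusting over 1 probe set per gene gave 233 calls among 18193 genes, of which the main fit called 198. Runx3 1440275_at is not the brightest of its gene and was not tested there. Leaving out 1 array gave 79 to 4287 probe sets, the highest without EBF 3, with 0 to 1 member probe sets lower, 0 to 4 cofactors, 0 to 5 blood targets and 1 to 2 bone targets. Without EBF 3 the adjusted p of Runx3 1440275_at was 0.0252, and without any other single array it was between 0.0804 and 0.225. Without EBF 3 and control 2 there were 1887 calls, 1 cofactor and 3 blood targets, and the Runx3 difference was -0.43 (0.0628). Runx1 1422864_at passed only with the block among its 15 alternatives, and ranged from -0.46 to -0.22. Differences near 0 changed sign when 1 array was left out: Cbfb ranged from -0.039 to 0.023 (0.013 without EBF 1, 0.023 without control 1), Runx1 1452530_a_at from -0.00052 (without EBF 2) to 0.27, Runx1 1427650_a_at from -0.25 to 0.0034 (without control 2) and Runx1 1452531_at from -0.085 to 0.074 (without control 2). Without EBF 3 and control 2, Runx1 1427650_a_at had 0.10 and Runx1 1452531_at 0.059. The shift between the 2 Runx3 probe sets stayed between 0.63 and 0.76 in all 11 alternatives tried, which were chosen after seeing the data. The lowest value was without EBF 1 and the highest without EBF 2. Median scaling could hardly move a difference taken within an array, so it is no check of this shift.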
